A study of Mus musculus with 2 samples.

Results

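The p53 target genes described here are 32 mouse genes that carry out or restrain the p53 response. Their elements were taken from a STARR-seq table as those with a midpoint within 10 kb of an annotated start of such a gene. This gave 37 elements, out of 18431 elements in the table. STARR-seq places genomic fragments inside a plasmid transcription unit, so that the RNA made from a fragment reports its own regulatory activity. The assay was run in activated T-helper 2 cells (Th2), a kind of helper T cell known for IL-4, IL-5 and IL-13. They were primary cells from mice of the strain C57BL/6NJ, with the plasmid pool held as an episome after transient transfection. Interleukin-4, interleukin-2 (4 days) and anti-Interferon-gamma (2 ug/mL, 4 days) were given together with anti-CD3e (0.25 ug/mL, 3 days) and anti-CD28 (1 ug/mL, 3 days). Both output libraries belong to 1 group and share a donor record, though they are numbered as 2 biological replicates, and there was no untreated, damaged or p53-deficient group. Age and sex of the animals are not given. RNA of the cells' own genes was not measured, so Th2 markers could not be checked.

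The transcription factor p53, encoded by Trp53, is held at a low level by the ubiquitin ligase MDM2 and its partner MDM4, and rises after DNA damage and other stress. It binds DNA as a tetramer, at a pair of decamers in each of which purines, C, A or T bases, G and pyrimidines follow each other. Its targets stop the cell cycle, start apoptosis, repair DNA, temper metabolism and, through MDM2, turn p53 off again. In T cells, as elsewhere, it is known to restrain proliferation and to guard genome integrity.

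The fold, p-value and q-value of each element are those of the authors' deposited table, which combines both libraries and gives no value for either. A signal track per library, named in the text lists deposited with the libraries, was not analysed here, so no spread between libraries and no depth are given. The q-value is the only test behind an element. The fold is read as log2 of RNA output over input DNA, although the sources used here give neither its base nor its reference. An element is called positive or negative by its sign alone. The table lists only elements with a q-value below 0.01, so a gene without an element is one where none was listed. Whether its DNA was tested is not known here.

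The sequences chosen here are p53 full-site matches in positive elements near these genes, which 12 of the 31 such elements held and 19 did not. A match is a pair of p53 decamers with a spacer of 0 or 1 base and at most 3 mismatches in all, with the C and the G of each decamer kept. Shown are the matches with at most 2 mismatches (overlapping ones once), on the plus strand of mm10, 5′ to 3′. The match is in capitals and up to 40 bases of the same element stand on each side, without annotated exons. The Zmat3 match and 1 of the Bax matches lie in annotated exons and are shown without flanks.
Zmat3, chr3:32364331-32364350, 0 mismatches: AGACATGCCTGGGCTTGTTT
Cdkn1a, chr17:29090888-29090975, 1 mismatch: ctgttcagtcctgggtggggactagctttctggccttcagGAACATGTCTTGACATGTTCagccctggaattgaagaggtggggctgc
Ccng1, chr11:40754896-40754995, 1 mismatch: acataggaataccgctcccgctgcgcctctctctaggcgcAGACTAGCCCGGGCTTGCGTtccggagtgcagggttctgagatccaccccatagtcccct
Ccng1, chr11:40755422-40755521, 1 mismatch: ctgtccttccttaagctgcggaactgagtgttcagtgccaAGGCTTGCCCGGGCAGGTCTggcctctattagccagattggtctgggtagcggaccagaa
Rps27l, chr9:66946256-66946354, 1 mismatch: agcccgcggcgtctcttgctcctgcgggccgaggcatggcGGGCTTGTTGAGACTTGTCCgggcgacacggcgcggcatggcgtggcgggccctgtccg
Mdm4, chr1:133020255-133020354, 1 mismatch: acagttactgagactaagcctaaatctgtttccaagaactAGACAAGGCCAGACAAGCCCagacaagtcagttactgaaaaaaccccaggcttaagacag
Phlda3, chr1:135759829-135759928, 2 mismatches: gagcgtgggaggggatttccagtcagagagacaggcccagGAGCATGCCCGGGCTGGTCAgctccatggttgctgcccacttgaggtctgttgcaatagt
Bax, chr7:45466574-45466593, 2 mismatches: CGACAAGCCCGGGCCTGCCC
Bax, chr7:45467039-45467139, 2 mismatches: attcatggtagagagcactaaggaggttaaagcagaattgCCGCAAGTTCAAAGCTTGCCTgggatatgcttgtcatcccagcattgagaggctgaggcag
Eda2r, chrX:97376494-97376593, 2 mismatches: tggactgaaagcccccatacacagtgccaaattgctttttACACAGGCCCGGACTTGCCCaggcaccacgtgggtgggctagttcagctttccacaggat
Plk2, chr13:110394354-110394453, 2 mismatches: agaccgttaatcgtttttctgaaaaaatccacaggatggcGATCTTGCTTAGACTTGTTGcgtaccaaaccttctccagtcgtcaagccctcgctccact

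Elements at p53 target genes were mostly positive. Of the 37 elements, 31 raised reporter RNA and 6 lowered it, so that 83.8% were positive, against 55.0% of the 10071 elements within 10 kb of a start of any protein-coding gene. At least 1 positive element lay within 10 kb of 21 of the 32 genes (65.6%), against 24.5% of 21938 protein-coding genes. A negative element lay near 5 genes (15.6%), against 22.1%, an order that turned within 50 kb (43.75% against 39.9%). An element of either sign lay near 22 genes (68.8%, against 40.4%). Of these 22 genes 21 had a positive one, where 60.6% of the 8864 protein-coding genes with an element did. The target genes had a median of 4 annotated starts, against 3 for all protein-coding genes, with a median spread of 3326 bp against 2822 bp. The part of this wider annotation, or of how active the genes are in Th2 cells, in these shares was not tested.

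The median log2 fold of the 31 positive elements was 1.41, a 2.67-fold rise, with a range of 0.57 to 3.71. It was 1.11 over all positive elements within 10 kb of a protein-coding start. The 6 negative elements had a median of -0.84 and a range of -1.19 to -0.48, against -1.25 for all negative elements within that distance. Only the element before Bbc3 (-1.19) went below -1. The positive elements had a median GC content of 54.4% and the negative ones 64.4%.

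**Figure D1:**
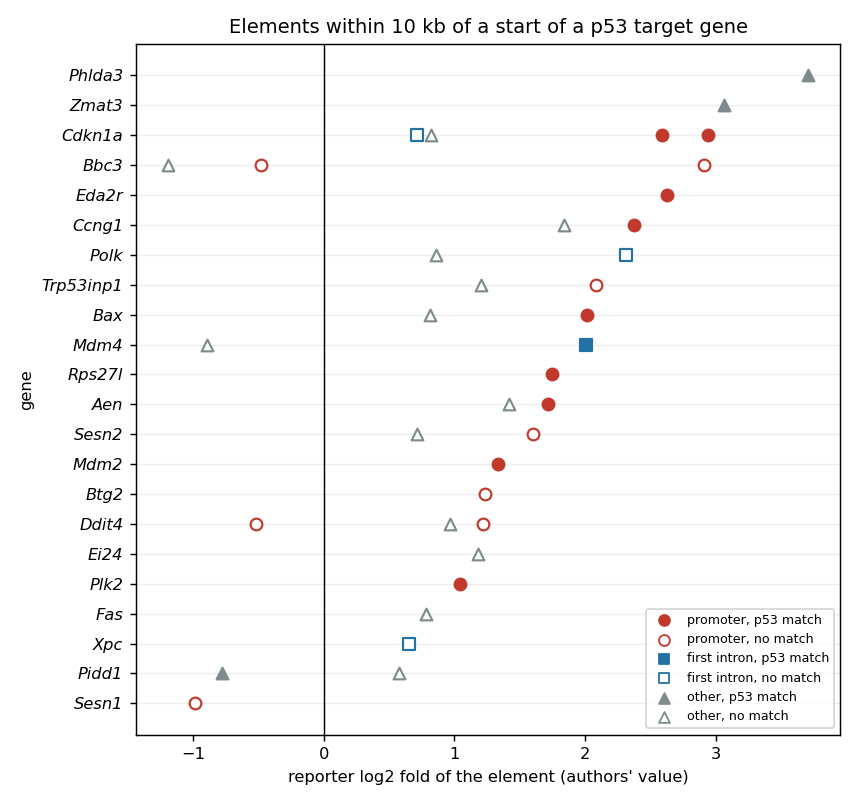
Reporter log2 fold (x axis, the authors' value for both libraries together) of each of the 37 elements within 10 kb of a start of the 22 p53 target genes that have one (y axis, ordered by their highest value). Circles are promoter elements, squares first-intron elements and triangles all others, filled where the element holds a p53 match; 12 of the 13 filled symbols lie above 0, and the exception belongs to Pidd1.

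Matches to the p53 full site were frequent in these elements. They were found in 12 of the 31 positive elements (38.7%), against 9.36% of all positive elements within 10 kb of a protein-coding start and 9.57% of all positive elements. A match with at most 1 mismatch was in 5 of the 31, against 2.29% of positive elements within 10 kb. Among the 6 negative elements 1 held a match, with 3 mismatches, where 6.6% of negative elements within 10 kb held one. Counted by gene, 11 of the 32 targets (34.4%) had a match in a positive element within 10 kb, against 2.86% of protein-coding genes. The match count depends on the definition. An exact pair of decamers with a spacer of 0 to 13 bases was in 2 of the 31, at Cdkn1a and Zmat3 (6.45%, against 0.99% of all positive elements).

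Positive elements with a match had a median log2 fold of 2.19 (1.04 to 3.71) and those without one a median of 1.18 (0.57 to 2.91). Both ranges overlap widely. The elements with a match were also wider, with a median of 750 bp against 450 bp, which gives a match more room. These 12 elements hold 19 matches of at most 3 mismatches, overlapping ones counted singly. None of the 19 lay in repeat-masked sequence for 50% or more of its length. Among all elements, the best match lay there in 49.0% of the 412 with at most 1 mismatch. The share was lower, 33.7%, among the 727 with at most 2 mismatches. No such share is given for all elements with at most 3 mismatches, so the 19 matches have no like background. Over the whole table the share of positive elements was 99.1% at 0 mismatches, 98.0% at 1, 81.0% at 2, 69.0% at 3 and 70.8% without a match. At promoters, where 9 of the 12 lie, these shares were lower, with 80% positive among the 25 promoter elements at 1 mismatch, 49.0% of 96 at 2, 35.8% of 335 at 3 and 33.8% of 5593 without a match. The target promoters with a match and a positive fold numbered 3 in each of the classes of 1, 2 and 3 mismatches.

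**Figure D2:**
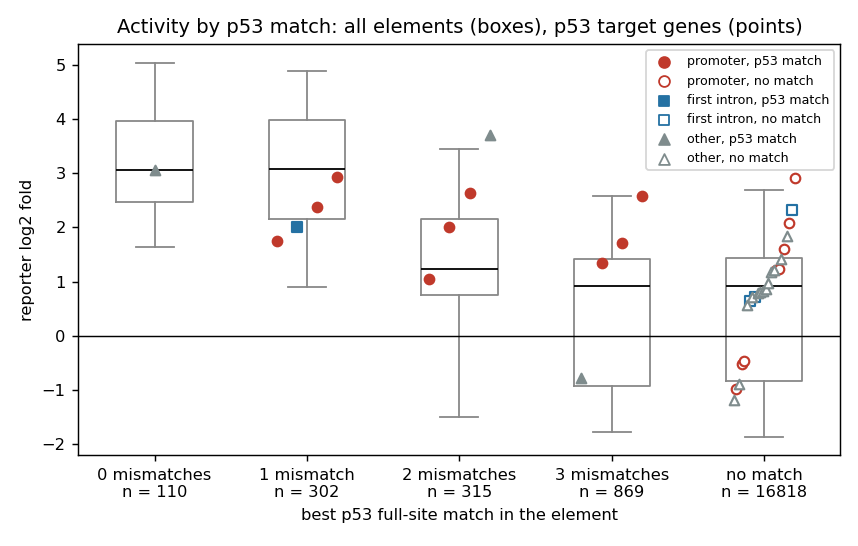
Reporter log2 fold (y axis) by the number of mismatches of the best p53 full-site match in the element (x axis). Boxes show the median and quartiles of all elements of the class, the 37 included, with whiskers at the 5th and 95th percentiles; points are the elements of p53 target genes, marked as in the plot by gene, and the element with 0 mismatches, at Zmat3, has a log2 fold of 3.06.

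Promoters, here midpoints within 1000 bp of a start of the gene itself, held 17 of the 37 elements, and 14 of them were positive (82.4%). Of all 6052 promoter elements 34.4% were positive. A positive promoter element was present at 13 of the 32 genes (40.6%, against 9.85% of protein-coding genes) and a negative one at 3 (9.38%, against 17.5%). With the starts of protein-coding transcripts only, these counts were 13 and 2 genes. All 14 positive promoter elements had a fold above the median of all positive promoter elements (log2 1.02), and 4 of them lay above the 90th percentile (2.43). A p53 match was in 9 of the 14, against 9.13% of all positive promoter elements, and in none of the 3 negative ones. By gene, 8 of 32 had a match in a positive promoter element, against 0.93% of protein-coding genes.

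GC content separates positive from negative promoters in the whole table, and the promoters of p53 targets were compared with promoters of like GC content. Of the 12 target promoter elements with a GC content of at least 60%, 9 were positive. Over all 4261 promoter elements of that GC content 15.8% were positive. All 5 of the target elements in this class that held a match were positive, against 18% of all 300 such promoter elements with a match. Those without a match were positive at Trp53inp1, Btg2, Sesn2 and Ddit4 and negative at Bbc3, Sesn1 and Ddit4. Over all promoter elements of this GC content without a match 15.7% were positive. Of the 5 target elements from 50% to under 60%, all were positive, against 73.3% of 1261.

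**Figure D3:**
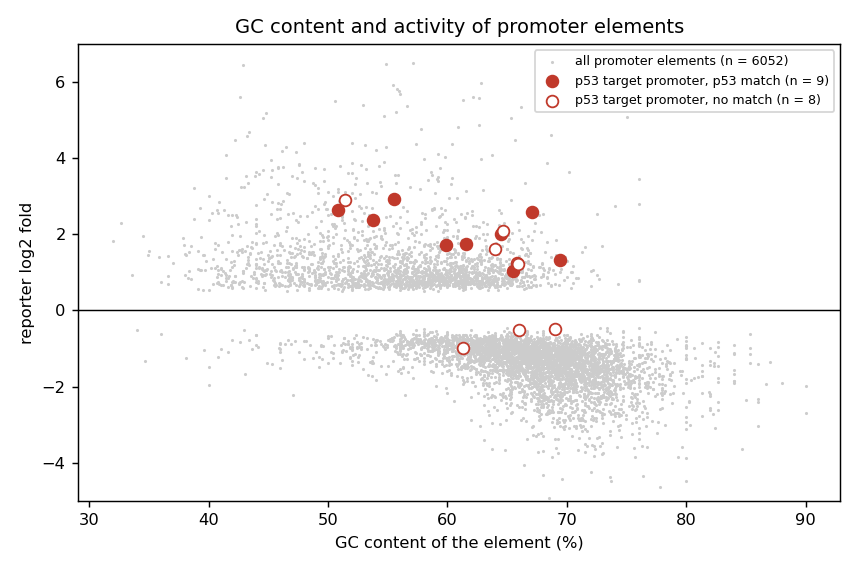
GC content (x axis, %) and reporter log2 fold (y axis) of all 6052 promoter elements (grey, 1 of them outside the plotted range) and of the 17 promoter elements of p53 target genes (red, filled with a p53 match). At a GC content of 60% or more, 9 of 12 target elements are above 0, while 15.8% of all promoter elements are.

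Negative feedback on p53 runs through Mdm2, Mdm4 and Ccng1. Mdm2, the main ubiquitin ligase for p53, had 1 element (chr10:117709926-117710275, log2 1.34, q = 0.00196). It lies 658 bp past the gene's outermost start, in the first intron of 5 transcripts and an exon of Mdm2-207, 22.5 bp from the start of the shorter transcript Mdm2-206, and holds a match with 3 mismatches. Its GC content of 69.4% was the highest of the 14 positive promoter elements. Ccng1 encodes cyclin G1, which recruits a phosphatase to MDM2. Its promoter element (chr11:40754626-40755750) had a log2 fold of 2.37 (q = 9.84e-07) and held 4 matches, among them the pair shown above. A further Ccng1 element without a match, 7275 bp past the start, had a log2 fold of 1.84.

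Mdm4, which binds p53 and blocks its activity, had 1 element of each sign. The positive one lies in the first intron of 9 transcripts (chr1:133020076-133020750, log2 2.01, q = 2.54e-08). Its pair of overlapping matches, each with 1 mismatch, starts 10 bases apart, in a run of repeated decamers. The negative one, 3314.5 bp before a start of the gene, had a log2 fold of -0.89 and no match. Trp53 itself had no element within 10 kb. The nearest lay 16580.5 bp from a start and was negative (-1.02). Trp53inp1 encodes a nuclear protein that promotes p53 phosphorylation. Its promoter element (chr4:11155826-11156850) had a log2 fold of 2.08 (q = 8.10e-05) with no match, and an element 9043 bp before the start one of 1.21.

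Among the cell-cycle genes, Cdkn1a had the most elements of any target, 4, all of them positive. Cdkn1a encodes p21, the inhibitor of cyclin-dependent kinases through which p53 holds cells in G1. The element at its outermost start (chr17:29090851-29091050, 200 bp) had a log2 fold of 2.94, a 7.66-fold rise, with q = 3.48e-08, and ranked 129 of 2081 positive promoter elements. Its match of 1 mismatch is centred 38.5 bp before the start of Cdkn1a-204. A second element lies 807 bp past the start of Cdkn1a-205 (chr17:29094326-29094850), in the first intron of 3 transcripts and over an exon of the gene AC167363.2, with a log2 fold of 2.59 and 2 matches of 3 mismatches each. The other 2 elements, 1707 bp past that start and 8825.5 bp before the outermost start, were weaker, at 0.71 and 0.82, and held no match. The strong pair held matches and the weak pair did not, but whether the matches bear on these folds was not tested. Over the whole table, 69.0% of elements with a best match of 3 mismatches were positive, against 70.8% without a match.

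Btg2, an antiproliferative cofactor, had a promoter element at log2 1.23 (q = 0.00301) without a full match. Plk2, a polo-like kinase induced by stress, had a wide promoter element (chr13:110394301-110395575, 1275 bp) at 1.04 (q = 9.15e-05), with a match 642.5 bp before the start. Plk3 and Gadd45a, a kinase and a growth arrest protein, had no element within 10 kb.

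The apoptosis genes held the 2 highest folds of the set. The highest of all 37 belonged to an element 6256 bp before the start of Phlda3, which encodes a repressor of AKT (chr1:135759776-135759950, 175 bp). Its log2 fold was 3.71, a 13.1-fold rise (q = 1.09e-06), rank 496 of 13170 positive elements, and a match of 2 mismatches lay near its centre. Zmat3, a zinc finger RNA-binding protein that takes part in p53's control of splicing, had the next highest (chr3:32364201-32364450, 250 bp, log2 3.06, q = 2.24e-10). This element lies 1134.5 bp past a start, in an exon of the retained-intron transcript Zmat3-204 and in the first intron of the other 3 transcripts, and was the only one of the 37 with a match of 0 mismatches.

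Bbc3 encodes PUMA, a BH3-only protein that sets off mitochondrial apoptosis. Its element just past the outermost start (chr7:16308476-16308975) had a log2 fold of 2.91, a 7.52-fold rise, and the lowest q-value of the set (1.76e-10). It held no full match, but 1 exact decamer, shown here in capitals because this was the strongest promoter element without a match.
Bbc3, chr7:16308663-16308752: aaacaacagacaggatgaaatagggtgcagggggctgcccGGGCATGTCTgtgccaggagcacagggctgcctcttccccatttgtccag
An exact decamer alone is common, in 18.96% of all positive and 14.84% of all negative elements. Bbc3 also had 2 negative elements, at -1.19 (8567.5 bp before the start, GC content 73.6%) and -0.48 (533.5 bp past the start of Bbc3-203). Bbc3-203 is a retained-intron transcript, and the second of these lies 5657.5 bp past the gene's outermost start.

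Bax, the pore-forming member of the BCL2 family, had a promoter element (chr7:45466276-45467150) at log2 2.01 (q = 3.6e-06) with 2 matches. Its other element, at 0.81, lies 49.5 bp from a start of Ftl1, a ferritin gene, and 6343.5 bp from Bax. Eda2r, a TNF receptor family member on the X chromosome, had a promoter element at 2.63 (chrX:97376451-97377425, q = 3.13e-05). Aen, an exonuclease that degrades DNA in apoptosis, had one at 1.72 (chr7:78895651-78896475, q = 7.03e-05), with a match of 3 mismatches centred 4.5 bp before a start. A further Aen element, at 1.41, is nearer to Isg20 (948.5 bp) than to Aen (9896.5 bp).

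The remaining apoptosis genes had weak elements or none. Fas, the death receptor, had an element at 0.78, 5715.5 bp before its start. Ei24, an endoplasmic reticulum protein, had one at 1.18, 3595 bp before its start. Both elements of Pidd1, the scaffold of the PIDDosome, lie within 16.5 bp of a start of the neighbouring Slc25a22, at 0.57 and -0.78. The negative one holds the only match among the negative elements. Perp, Apaf1 and Tnfrsf10b, a membrane protein, the apoptosome scaffold and a TRAIL receptor, had no element within 10 kb.

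No element within 10 kb of the DNA repair targets (Polk, Xpc, Rrm2b, Ercc5) or the metabolic ones (Sesn1, Sesn2, Ddit4, Dcxr) held a p53 match. Polk, a translesion polymerase, had a strong element in the first intron of Polk-209 (chr13:96487251-96487750, log2 2.32, q = 5.65e-10), with no p53 match and with AP-1 and STAT matches. Polk-209 is annotated as a processed transcript, not as protein-coding, and this element lies 55078.5 bp past the gene's outermost start. The nearest start of a protein-coding transcript was that of Gm17622, 3232.5 bp away. A second Polk element had 0.86. Xpc, the damage sensor of nucleotide excision repair, had an intronic element at 0.65. Rrm2b and Ercc5, a ribonucleotide reductase subunit and a repair endonuclease, had none. Rps27l, a ribosomal protein paralogue, had a promoter element at 1.74 (chr9:66945551-66946600, q = 0.00192) with a match of 1 mismatch.

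The sestrins, which restrain mTORC1, differed in sign. Sesn2 had positive elements at its promoter (log2 1.60, q = 0.000864) and 5187 bp before the start (0.71). The promoter element of Sesn1, which also overlaps an exon of Cep57l1, was negative (-0.98, q = 0.00319), and Sesn1 was the only gene with an element and no positive one. Whether these folds differ from each other was not tested, since no values per library were analysed here. Ddit4, which encodes REDD1, another brake on mTORC1, had a positive promoter element at 1.22, a 50 bp negative element at -0.52 directly upstream, and a positive one at 0.97, 2004 bp before the start. Gdf15, a stress cytokine, and Dcxr, a sugar reductase, had no element within 10 kb.

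Away from the promoters of the target genes, 17 of 20 elements were positive (85%). Of these 20, 4 lie at a promoter of another gene, and of the remaining 16 elements 14 were positive (87.5%). This is close to the 89.7% of all 12362 elements outside promoters and to the 86.2% of the 4019 such elements within 10 kb of a protein-coding start. First introns held 4 elements, all positive, with log2 folds of 2.32 at Polk, 2.01 at Mdm4, 0.71 at Cdkn1a and 0.65 at Xpc. The Polk one is in the first intron of the processed transcript Polk-209 only, 55078.5 bp past the gene's outermost start. The other 16 elements lay upstream (9), downstream (5), in an exon (1) or in a later intron (1), and 13 of them were positive. The 3 positive elements outside promoters with a match (Phlda3, Zmat3 and Mdm4) all exceeded log2 2. Over all positive elements outside promoters, the median was 3.06 at 0 mismatches (Zmat3 3.06), 3.28 at 1 (Mdm4 2.01) and 1.61 at 2 (Phlda3 3.71). The 14 without a match had a median of 0.84, against 1.21 for all positive elements outside promoters without one. These 14 include the positive elements at promoters of Ftl1, Isg20 and Slc25a22, which that background leaves out. Both limits of the classes have elements close by, since Zmat3 (1134.5 bp) falls just outside the promoter class and the Cdkn1a intronic element (807 bp) just inside. At the 10 kb limit the Aen element at 9896.5 bp is inside, and a Rrm2b element at 10545 bp, with a log2 fold of 1.15, is outside.

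**Figure D4:**
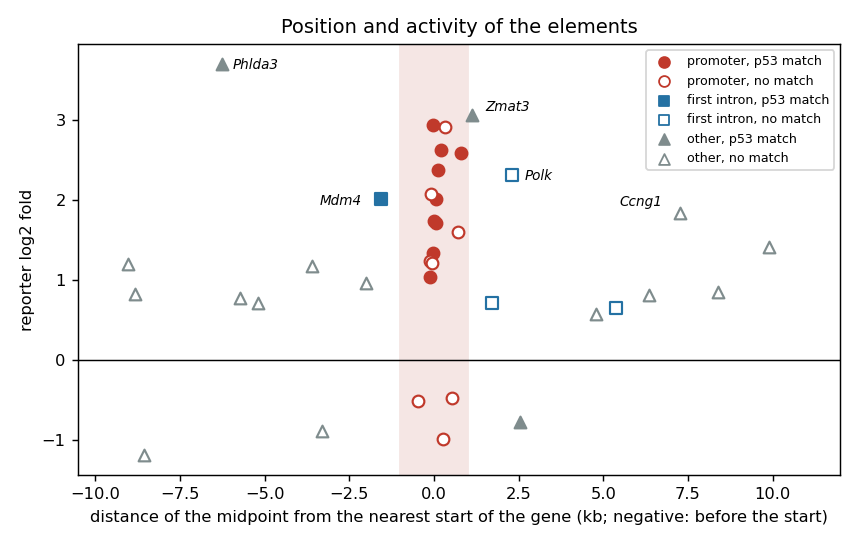
Distance of each element's midpoint from the nearest start of its gene (x axis, kb, negative before the start) and its reporter log2 fold (y axis), marked as in the plot by gene, with the promoter class shaded. Elements above log2 1.8 outside the promoter class carry the gene name; 3 of these 5 hold a p53 match.

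Sites of other factors were counted on both strands in the 31 positive elements. No searched string contains another, although matches can overlap. AP-1 (TGANTCA) was in 10 elements (32.3%, against 43.1% of all positive elements) and STAT (TTCNNNGAA) in 7 (22.6%, against 23.5%). Of the 12 elements with a p53 match, 4 held AP-1 and 3 held STAT. Of the 19 without one, 6 held AP-1 and 4 held STAT. The interferon-stimulated response element was in 4 (12.9%, against 15.6%) and the cyclic AMP response element TGACGTCA in 2, at Plk2 and Btg2 (6.45%, against 3.01%). CCAAT, the NFY site, was in 18 (58.1%, against 41.3%). GGGCGG, the SP/KLF site, was in 15 (48.4%, against 17.4%), and CCGGAA, the ETS core, in 6 (19.4%, against 11.5%). AAGATGGC, the YY1 site, was in none of the 31, against 4.79% of all positive elements. Several of these strings are more frequent at promoters, which 14 of the 31 elements are. Among those 14, the SP/KLF site was in 9 (64.3%, against 56.2% of all positive promoter elements), the NFY site in 8 (57.1%, against 54.8%) and the ETS core in 3 (21.4%, against 36.7%). The cyclic AMP response element was in 2 of the 14 (14.3%, against 7.40%) and the YY1 site in none (against 11.2%). Among the 17 others the SP/KLF site was in 6 (35.3%, against 10.1% of all positive elements outside promoters), the NFY site in 10 (58.8%, against 38.7%) and the ETS core in 3 (17.6%, against 6.74%). The 17 include the positive elements of Bax, Aen and Pidd1 at promoters of Ftl1, Isg20 and Slc25a22, which that background leaves out. Each of these held the SP/KLF and the NFY site. No test was made of these shares.

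The sequence match was also searched in the RefSeq promoters of the GRCm38.p6 assembly, which span 250 bases before to 50 after a start, whether or not an element was listed there. Of the 32 genes 26 had an entry, with 35 promoters. A match with at most 3 mismatches was in 10 of these 35 and in 2.82% of all 32851 promoters. At most 1 mismatch was found at Ccng1, Cdkn1a and Rps27l, and in 0.11% of all promoters. Of the 10 promoters with a match, 6 overlapped a positive element (1 each at Bax, Rps27l, Ccng1 and Cdkn1a, and 2 at Aen) and none a negative one. The other 4, at Dcxr, Trp53, Bbc3 and Sesn1, overlapped no listed element. The Sesn1 match lies at a start other than that of its negative element. The 2 Aen promoters overlap each other and the same element. How many of all promoters with a match overlap a positive element was not counted, so these overlaps have no share beside them.

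A list of 60 other p53 pathway genes gives the surroundings of the targets. A positive element lay within 10 kb of 32 of them (53.3%, against the 24.5% of protein-coding genes) and a negative one near 16 (26.7%, against 22.1%). A match in a positive element was present at 6 (10%, against 2.86%). These were Gtse1, which encodes a protein that binds p53 (log2 2.44, 1 mismatch), Tsc2, an mTORC1 inhibitor (2.15), Ckap2, a spindle protein (1.63), the BH3-only gene Pmaip1 (1.47), Ccne2, cyclin E2 (3.07), and the kinase gene Cdk6 (0.84). The other 4 genes with a match, Trp73, Siah1a, Casp9 and Tigar, had it in a negative element, at -1.01, -1.75, -0.94 and -0.77, each with 3 mismatches. The median log2 fold of the 44 positive elements near this list was 1.06.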

How the data were processed

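STARR-seq output RNA of 2 libraries of activated Th2 cells was summarised by the authors in 1 deposited element table on mm10, made from both alignments, per the text lists deposited with each library. The sources used here name no aligner or caller. The deposited values per element are a signed log fold, read here as log2, linear p-values and q-values, and the width in bp. The table gives no depth, the signal tracks per library were not used here, and no test over samples was made, so shares are described beside the same share over all genes or elements (18414 on assembled chromosomes) with no test. p-values are the authors'.

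The starts of all transcripts of a gene in GENCODE M21 and the GRCm38.p6 genome, the same build, were used. Deposited starts count from 1. An element was placed by its midpoint as promoter (1000 bp), exon, first intron or other. The p53 search was tested on simulated data with planted sites. Named are all target genes, with the elements of lowest q-value or with a match. Alternatives were other windows, promoter limits, start sets, q-value and fold limits and match definitions. The target genes and lists were chosen with earlier results of these data known. Python 3.11.15, numpy 2.4.6, pandas 2.3.3 and pysam 0.24.0 were used.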

Additional observations from a re-analysis of the deposited data

How the results depend on the processing

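No paired analysis was possible because the table combines both libraries and the study has 1 group, so no replicate could be left out either. Of 68 alternative values 54 kept within 1.5 times the main count, or within the 95% binomial interval of the median over elements. A turn in sign could not occur, since elements were split by sign before the medians were taken. For the 6 negative elements the interval was their full range, -1.19 to -0.48, so their median could hardly leave it. The positive elements (31) numbered 55 within 25 kb and 68 within 50 kb, and the negative ones (6) 12 and 24, with negative elements at 8 and 14 genes in place of 5. At 50 kb, 87.5% of the target genes had a positive element, against 55.1% of protein-coding genes, and 43.75% had a negative one, against 39.9%, so that the lower share of genes with a negative element seen at 10 kb (15.6% against 22.1%) turned at 50 kb. At 25 kb it was 25% against 29.8%. With a q-value below 0.001 or an absolute log2 fold of at least 1, 1 negative element at 1 gene was left, and negative promoter elements at 0 genes in place of 3. Matches fell from 13 elements to 2 with exact decamers (spacer 0 to 13) and to 6 within the central 200 bp. Added after seeing the data were at most 4 mismatches (14 elements, 13 of them positive, or 41.9% of the positive ones against 18.6% of all positive elements) and 1 exact decamer (17, all positive, 54.8% against 18.96%). Element depth is unknown, so how far it limits a fold cannot be said.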

Other observations

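Beyond 10 kb, 5 further elements with a p53 match lay within 50 kb of a target gene, and 4 of them were positive. Most elements with a match are positive over the whole table too (98.0% at 1 mismatch, 81.0% at 2 and 69.0% at 3). The strongest of the 5, at log2 4.51 (chr4:11176201-11176575, q = 3.93e-08), lay 11929 bp from the nearest start of Trp53inp1 and held a match of 2 mismatches. This exceeds the 3.71 of the highest element within 10 kb. A 75 bp element at 3.07 (chr4:11184326-11184400) lay 19904 bp from Trp53inp1 and 6988 bp from Ccne2, the cyclin E2 gene. Cdkn1a had a further element with a match, 11950.5 bp from its nearest start (chr17:29078726-29079325, log2 2.84, 1 mismatch). Gdf15, which had no element within 10 kb, had one at 2.36 with 2 mismatches at 17119.5 bp, nearer to Pgpep1 (5803.5 bp). The negative one, at -1.39 with 3 mismatches, was 27956.5 bp from Tnfrsf10b and 100.5 bp from a start of Rhobtb2.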
